A study of Homo sapiens with 32 samples.

Results

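AHR encodes the aryl hydrocarbon receptor, and ARNT, AHRR and TIPARP encode its dimer partner, its repressor and an enzyme that it induces. The 4 genes were picked from their known roles around AHR, and AHR itself was chosen by its levels on these arrays, which differed between resistant lines. Of the 4 listed genes, 3 were measured (AHR, ARNT and TIPARP, with 1 array feature each) among 14884 named genes on the array, and AHRR was not analysed here. Levels were taken in 8 sets of 4 arrays from K-562, an established human chronic myeloid leukemia cell line driven by a BCR fusion kinase.

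The resistant sets were 2 lines resistant to 0.5 µM imatinib, 2 lines resistant to 2 µM imatinib and 2 lines resistant to 0.1 µM nilotinib, both drugs being inhibitors of that kinase. The concentration had been raised in steps to obtain these lines, per the labels. The cells they were set against were treatment-naive K-562 cells in 2 sets, S and K, letters that the labels do not explain. The growth text of every sample describes medium without either drug, so whether the lines met drug at harvest is not clear. No label says that a line is a single clone. Per the design text, the lines of a resistance are biological replicates. The 4 arrays of a line are technical replicates, and the 4 arrays of each naive letter were treated likewise, so the SD within a set measures technical spread, and the number of lines (2 per resistance) limits the precision.

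The aryl hydrocarbon receptor is a transcription factor of the basic helix-loop-helix PAS family that waits in the cytoplasm with the chaperone HSP90 and cochaperones. Planar aromatic pollutants, tryptophan breakdown products and other small ligands release it to the nucleus, where it pairs with ARNT and binds DNA at sites with the core GCGTG. Its classical outputs are xenobiotic-metabolising enzymes, and AHRR and TIPARP form negative feedback: the first competes for ARNT, and the second adds ADP-ribose to the receptor. In blood formation the receptor is known as a brake on the expansion of stem and progenitor cells.

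In the RefSeq annotation of GRCh38.p14, AHR lies on chromosome 7, ARNT on chromosome 1 and TIPARP on chromosome 3; no source used here gives the build behind the array design. The start regions of AHR and TIPARP are shown because TIPARP is a known target of the receptor and its level is set beside that of AHR below. Each line gives the 250 bases before the first annotated start, 5′ to 3′ on the gene's strand, from RefSeq (GRCh38.p14). Capitals mark the core GCGTG read on the opposite strand, as CACGC. The AHR stretch is chr7:17298402-17298651 on the plus strand, and the TIPARP stretch is chr3:156674340-156674589 on the plus strand.
AHR: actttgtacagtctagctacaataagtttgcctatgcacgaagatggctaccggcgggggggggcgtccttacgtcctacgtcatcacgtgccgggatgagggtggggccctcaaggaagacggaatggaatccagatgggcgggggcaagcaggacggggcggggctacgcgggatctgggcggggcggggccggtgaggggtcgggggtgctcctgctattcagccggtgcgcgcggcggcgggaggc
TIPARP: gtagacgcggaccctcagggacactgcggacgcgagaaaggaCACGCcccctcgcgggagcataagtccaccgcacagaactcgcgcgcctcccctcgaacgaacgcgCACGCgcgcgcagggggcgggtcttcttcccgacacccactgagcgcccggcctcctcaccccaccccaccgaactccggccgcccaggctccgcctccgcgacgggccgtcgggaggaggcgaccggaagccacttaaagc
The TIPARP stretch held 2 copies of the core, and the AHR stretch held 0. On either strand, GCGTG occurred in 36.5% of 35116 windows of 300 bases around annotated starts, of which 250 bases lie before the start. The longer form TNGCGTG occurred in 5.51% of windows and in 0 of the windows of AHR, ARNT and TIPARP. The 300-base window of AHR held 1 copy of GCGTG, after the start, and that of ARNT held 0. TIPARP has 3 such windows: the first held the 2 copies shown, and windows 2 and 3 held 0. A match of letters is a description of the window and not a binding site.

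All levels and differences below are on the log2 scale, whose base was inferred from the values. AHR levels were high in naive cells and in 1 nilotinib line, and low in the other 5 resistant lines. In line 1 resistant to 0.5 µM imatinib the 4 arrays read 5.95, 6.17, 5.82 and 6.17, and in line 2 they read 5.63, 5.13, 5.41 and 5.49. In line 1 resistant to 2 µM imatinib they read 7.51, 7.33, 7.23 and 7.55, and in line 2 they read 5.30, 5.64, 5.39 and 5.94. Both imatinib resistances thus lay below every naive array, and the receptor gene kept its highest imatinib level in line 1 at 2 µM. In nilotinib line 1 the arrays read 10.58, 10.87, 10.61 and 10.69, and in nilotinib line 2 they read 6.73, 6.51, 6.66 and 6.61. The naive arrays read 10.33, 10.32, 10.48 and 10.24 in set S and 9.31, 9.70, 9.98 and 9.30 in set K. The 2 nilotinib lines therefore stood on opposite sides of the naive level, with all 4 arrays of line 1 above all 8 naive arrays and all 4 of line 2 below them.

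**Figure D1:**
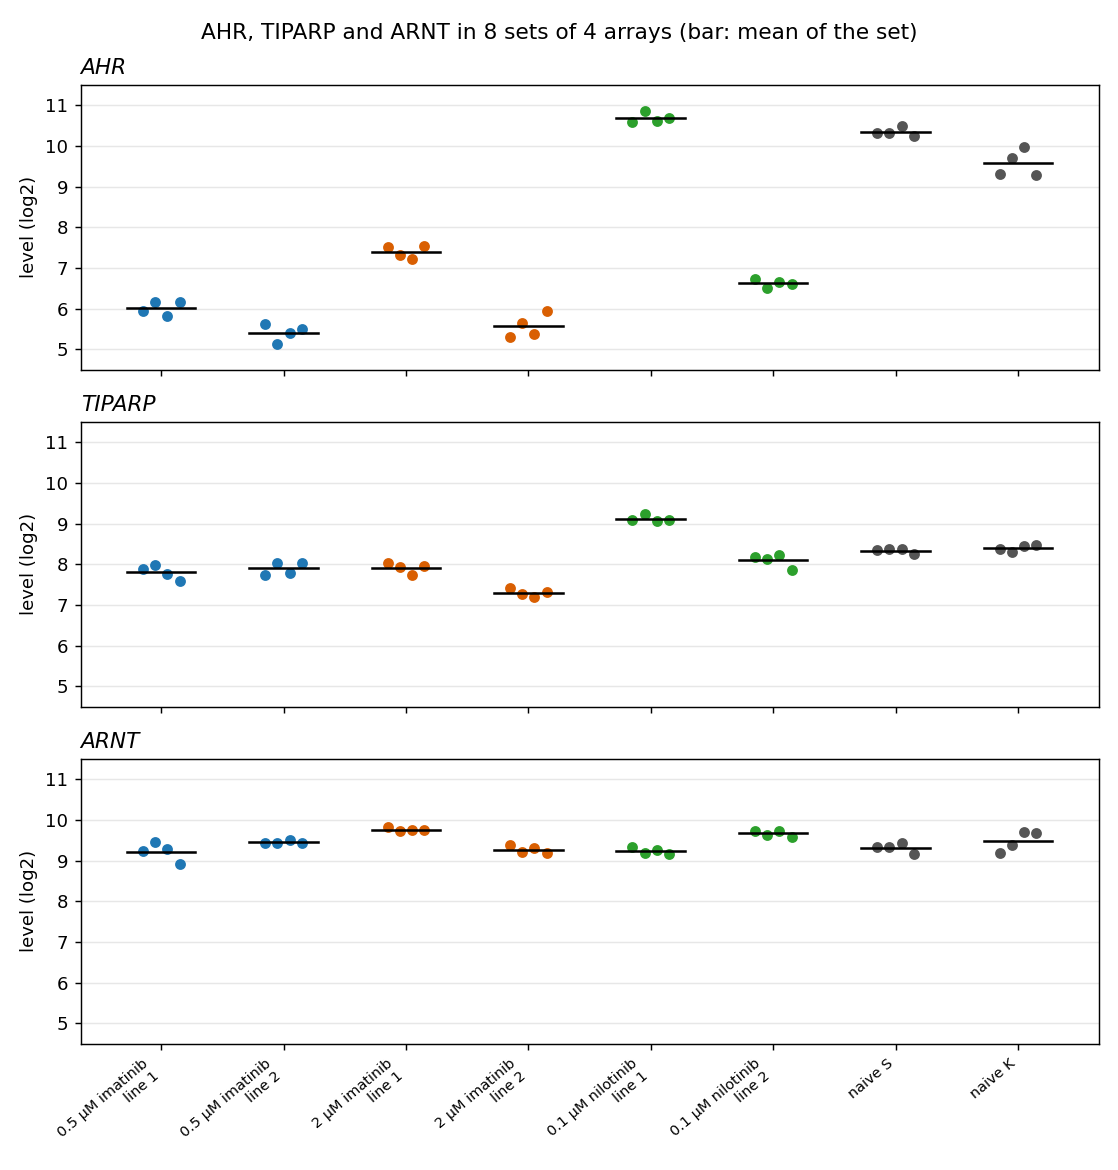
Levels of AHR, TIPARP and ARNT (log2, same axis range in each panel) on the 4 arrays of each of 8 sets, with points for arrays and bars for set means. AHR set means run between 5.41 and 10.69, those of TIPARP between 7.30 and 9.12, and those of ARNT between 9.23 and 9.76.

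Relative to the mean of the naive sets (9.96), AHR differed by -3.93 and -4.54 in lines 1 and 2 resistant to 0.5 µM imatinib, or 15.2-fold and 23.3-fold lower. The difference was -2.55 in line 1 resistant to 2 µM imatinib (5.87-fold lower) and -4.39 in line 2 (21-fold lower). It was 0.73 in nilotinib line 1 (1.66-fold higher) and -3.33 in nilotinib line 2 (10.0-fold lower). The naive sets themselves lay 0.77 apart, about as far as nilotinib line 1 lay above their mean. Since AHR was chosen for this pattern, its levels carry no test. In bulk RNA, fewer cells with the transcript and less of it per cell cannot be told apart.

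In rising order of set means AHR stood at 5.41 ± 0.21 in 0.5 µM imatinib line 2, 5.56 ± 0.29 in 2 µM imatinib line 2, 6.03 ± 0.17 in 0.5 µM imatinib line 1, 6.63 ± 0.09 in nilotinib line 2 and 7.40 ± 0.15 in 2 µM imatinib line 1. Then came 9.57 ± 0.33 in naive K, 10.34 ± 0.10 in naive S and 10.69 ± 0.13 in nilotinib line 1 (SD, n = 4 arrays each). The arrays of the lowest 3 sets overlapped between neighbours in this order, and the arrays of all later neighbours lay apart. The widest gap, 2.17, separated 2 µM imatinib line 1 from naive K. Without detection calls it is not known whether the lowest levels lie above background, so the folds may understate the differences.

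The span of AHR set means, 5.28, ranked 9 among 14884 genes. A mean at least 2 below both naive sets in 5 lines, with the remaining line not below them, occurred for 1 gene, AHR, with nilotinib line 1 as the line left out. With a difference of at least 1, that pattern held for 4 genes (AHR, AIG1, EPB41L3 and SORCS1). It held for 3 genes with nilotinib line 2 as the line not lower (HEPACAM2, SRGN and TSSC2), and for 0 genes with any imatinib line in that place. CD24 and KIT, the genes nearest to AHR below, missed the difference of 1 narrowly, and only in 2 µM imatinib line 1. There CD24 read 8.68, against 9.64 in naive S, and KIT read 7.54, against 8.44 in naive S. The differences of 2 and 1 and these genes were chosen after the values were seen.

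TIPARP, a mono-ADP-ribosyltransferase also called PARP7, varied over a narrower range. The 0.5 µM imatinib arrays read 7.89, 7.99, 7.75 and 7.59 in line 1 and 7.73, 8.04, 7.80 and 8.04 in line 2. The 2 µM imatinib arrays read 8.02, 7.92, 7.73 and 7.96 in line 1 and 7.42, 7.27, 7.20 and 7.33 in line 2. These 4 lines lay below all 8 naive arrays. The nilotinib arrays read 9.10, 9.23, 9.08 and 9.08 in line 1 and 8.17, 8.14, 8.23 and 7.85 in line 2. The naive arrays read 8.36, 8.37, 8.38 and 8.25 in set S and 8.37, 8.30, 8.45 and 8.48 in set K. Nilotinib line 1 was again the 1 line above the naive arrays, and nilotinib line 2 lay just under them.

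In rising order TIPARP stood at 7.30 ± 0.09 in 2 µM imatinib line 2, 7.81 ± 0.17 and 7.90 ± 0.16 in 0.5 µM imatinib lines 1 and 2, 7.91 ± 0.13 in 2 µM imatinib line 1 and 8.10 ± 0.17 in nilotinib line 2. It stood at 8.34 ± 0.06 in naive S, 8.40 ± 0.08 in naive K and 9.12 ± 0.07 in nilotinib line 1 (SD, n = 4 arrays each). In this order, arrays overlapped between neighbours through the 4 sets that begin with 0.5 µM imatinib line 1 and end with nilotinib line 2, and between the 2 naive sets; the other neighbours lay apart. The 3 sets highest for TIPARP were also the 3 highest for AHR, and the same line was highest for both, but 2 µM imatinib line 1, which had more AHR than the other imatinib lines, did not stand out for TIPARP. CLOCK, a PAS family gene named after its values were seen, had the same 3 highest sets. It read 9.09 in nilotinib line 1, 8.71 in naive S and 8.61 in naive K. How many of all genes share these highest sets was not counted.

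Between the lines of a resistance, limma on all 32 arrays measured differences against technical spread only. TIPARP was lower in nilotinib line 2 than in line 1 by 2.03-fold (-1.02 ± 0.10, SE, adjusted p = 3.44e-10 in limma), a pair in which AHR differed by -4.06 ± 0.14. TIPARP was also lower in line 2 than in line 1 at 2 µM imatinib (-0.60 ± 0.10, adjusted p = 6.85e-06 in limma), where AHR differed by -1.84 ± 0.14. It did not pass between the 0.5 µM imatinib lines (0.10 ± 0.10, adjusted p = 0.570 in limma), where AHR differed by -0.62 ± 0.14. Naive S less naive K gave -0.06 ± 0.10 for TIPARP (adjusted p = 0.724 in limma) and 0.77 ± 0.14 for AHR. Many genes differ at this technical level: 27.6% of genes passed between the nilotinib lines, 33% between the 2 µM imatinib lines, 18.7% between the 0.5 µM imatinib lines and 12.4% between the naive sets.

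ARNT, the partner that the receptor shares with the hypoxia-inducible factors, stayed within a span of 0.54, narrower than that of 65.9% of genes. Its arrays read between 8.92 and 9.45 in 0.5 µM imatinib line 1, 9.43 and 9.50 in line 2, 9.74 and 9.82 in 2 µM imatinib line 1, and 9.20 and 9.38 in line 2. They read between 9.18 and 9.33 in nilotinib line 1 and between 9.59 and 9.73 in nilotinib line 2. The naive arrays read between 9.17 and 9.43 in set S and between 9.18 and 9.69 in set K. In rising order the means were 9.23 ± 0.22 (0.5 µM imatinib line 1), 9.24 ± 0.08 (nilotinib line 1), 9.27 ± 0.09 (2 µM imatinib line 2), 9.31 ± 0.11 (naive S), 9.45 ± 0.03 (0.5 µM imatinib line 2), 9.48 ± 0.25 (naive K), 9.67 ± 0.07 (nilotinib line 2) and 9.76 ± 0.04 (2 µM imatinib line 1) (SD, n = 4 arrays each). The arrays overlapped between all neighbours in this order except naive S with 0.5 µM imatinib line 2, and nilotinib line 2 with 2 µM imatinib line 1.

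Between lines, ARNT was lower in line 2 than in line 1 at 2 µM imatinib (-0.49 ± 0.10, adjusted p = 2.23e-04 in limma). It was higher in nilotinib line 2 than in line 1 (0.43 ± 0.10, adjusted p = 0.00140 in limma), opposite in sign to AHR in that pair. It did not pass between the 0.5 µM imatinib lines (0.23 ± 0.10, adjusted p = 0.130 in limma) or for naive S less naive K (-0.17 ± 0.10, adjusted p = 0.289 in limma).

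Each resistance was then compared with naive cells, with lines as replicates, to ask whether a resistance as a whole changed the members. By limma on set means, neither ARNT nor TIPARP passed in any of the 7 comparisons. TIPARP differed by -0.51 ± 0.34 in the 0.5 µM imatinib lines (SE, adjusted p = 0.400, n = 2 lines against 2 naive sets), by -0.76 ± 0.34 in the 2 µM imatinib lines (adjusted p = 0.349) and by 0.24 ± 0.34 in the nilotinib lines (adjusted p = 0.623). Over all 6 lines its mean was 8.02, against 8.37 in naive sets, a difference of -0.35 ± 0.28 with a 95% interval of -1.001 to 0.31 (adjusted p = 0.409, lower in 5 of 6 lines). It was -0.57 without nilotinib line 1 and -0.20 without 2 µM imatinib line 2. ARNT differed by -0.06 ± 0.22 in the 0.5 µM imatinib lines (adjusted p = 0.888), 0.12 ± 0.22 in the 2 µM imatinib lines (adjusted p = 0.809) and 0.06 ± 0.22 in the nilotinib lines (adjusted p = 0.865). Over all 6 lines the ARNT mean was 9.44, against 9.40 in naive sets, a difference of 0.04 ± 0.18 with a 95% interval of -0.39 to 0.47 (adjusted p = 0.892); it was -0.28 after quantile normalization of the arrays. With the 32 arrays in place of set means and the set as a random block, the TIPARP difference in the 2 µM imatinib lines (-0.76) passed (adjusted p = 0.00767 in limma). That fit applies 1 correlation between arrays of a set (0.4351) to all genes and counts 28 residual degrees of freedom in place of 4. It therefore treats technical arrays partly as replicates.

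The same contrasts for AHR, given without a test, were -4.24 ± 1.23 in the 0.5 µM imatinib lines, -3.47 ± 1.23 in the 2 µM imatinib lines, -1.30 ± 1.23 in the nilotinib lines and -3.00 ± 1.00 over all 6 lines. The value for the nilotinib lines is a mean of 2 lines on opposite sides of naive: it was 0.73 without line 2 and -3.33 without line 1. All these comparisons share the naive sets. Over all genes, limma called 3.72% in all 6 lines against naive (478 genes higher and 75 lower of 14884, or 179 higher and 183 lower after quantile normalization), 0.443% in the nilotinib lines, 0% in the 0.5 µM imatinib lines and 0% in the 2 µM imatinib lines. At an unadjusted p under 0.05 the last pair had 3215 and 2266 genes. These counts depended on the setting: the 0.5 µM imatinib count was 1990 genes with only the groups compared and 705 without either 2 µM imatinib line. The 2 µM imatinib count was 113 without its line 1 and 125 without its line 2, and the nilotinib count (66) ran between 0 and 1187 with 1 set left out. The means of all 6 lines lay on one side of both naive means in 32.9% of genes, and none of the 3 measured members was among them.

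Between resistances the nilotinib lines had more TIPARP than the 2 µM imatinib lines by 1.00 ± 0.34 (unadjusted p = 0.0212, adjusted p = 0.744 in limma) and than the 0.5 µM imatinib lines by 0.76 ± 0.34 (adjusted p = 0.754 in limma), which did not pass. The 2 µM less the 0.5 µM imatinib lines gave -0.25 ± 0.34 (adjusted p = 0.961 in limma). ARNT gave -0.06 ± 0.22, 0.12 ± 0.22 and 0.18 ± 0.22 in these 3 comparisons (adjusted p = 0.942, 0.911 and 0.952 in limma). Both TIPARP differences moved with single nilotinib lines: without line 1 they were 0.49 and 0.24, and without nilotinib line 2 they were 1.52 and 1.27. AHR gave 2.17 ± 1.23, 2.94 ± 1.23 and 0.76 ± 1.23, and these values too depended on single lines. Without nilotinib line 1 nilotinib less 2 µM imatinib was 0.15 and nilotinib less 0.5 µM imatinib was 0.91, while without nilotinib line 2 they were 4.20 and 4.97. Nilotinib less 2 µM imatinib was 1.26 without 2 µM imatinib line 2, and 2 µM less 0.5 µM imatinib was -0.156 without 2 µM imatinib line 1, 1.68 without 2 µM imatinib line 2 and 0.46 without 0.5 µM imatinib line 2. In each of these 3 comparisons 0% of all genes passed in limma, with 943, 1028 and 722 genes at an unadjusted p under 0.05. These counts of 0 did not hold in every setting: without nilotinib line 2 there were 35 genes for nilotinib less 2 µM imatinib and 28 for nilotinib less 0.5 µM imatinib, and without 2 µM imatinib line 2 there were 270 for 2 µM less 0.5 µM imatinib.

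The genes most like AHR over the 8 sets were found by the root mean square difference between set means after each gene's own mean was subtracted. They share the arrays and so any technical variation between them. Nearest was CD24, a surface glycoprotein, with a root mean square difference of 0.57, followed by KIT, the stem cell factor receptor and a target of both drugs (0.74). CD24 differed from naive by 0.84 in nilotinib line 1 and by -2.66 in nilotinib line 2, and by -3.99, -3.71 and -3.74 in the 0.5 µM imatinib lines 1 and 2 and in 2 µM imatinib line 2. In 2 µM imatinib line 1 it differed by -1.01. KIT gave 0.59 and -3.61 in nilotinib lines 1 and 2, and -1.11 in 2 µM imatinib line 1. CD24, KIT and AHR thus shared the imatinib line in which they were least low, as well as the nilotinib line in which they were not low.

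The next nearest were EPB41L3, a membrane skeleton protein (1.02), PIM1, a kinase gene induced by STAT5 (1.11), NMU, a neuropeptide gene (1.11), AIG1 (1.20), IGF1, the insulin-like growth factor (1.24), and LINC00534, a long noncoding RNA (1.24). Among them, nilotinib line 1 lay above the naive mean for EPB41L3 (0.62), AIG1 (1.31), IGF1 (2.07) and LINC00534 (1.27), and below it for PIM1 (-0.70) and NMU (-1.92). The profiles closest to the mirror image of AHR were those of EPB41L4A (0.91), LTBP1, which binds latent growth factor in the matrix (0.99), TSPAN5, a tetraspanin (1.14), and SGIP1 (1.16). EPB41L4A differed from naive by -0.66 in nilotinib line 1, and the other 5 lines gave 1.41 to 2.72. For TIPARP, whose set means span 1.82, the nearest genes were PLBD1 (0.19), DLX4, a homeobox gene (0.20), and IQUB (0.21), which lay 0.91, 0.86 and 0.90 above naive in nilotinib line 1. The span of ARNT was under 1, and no like genes were sought for it.

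**Figure D2:**
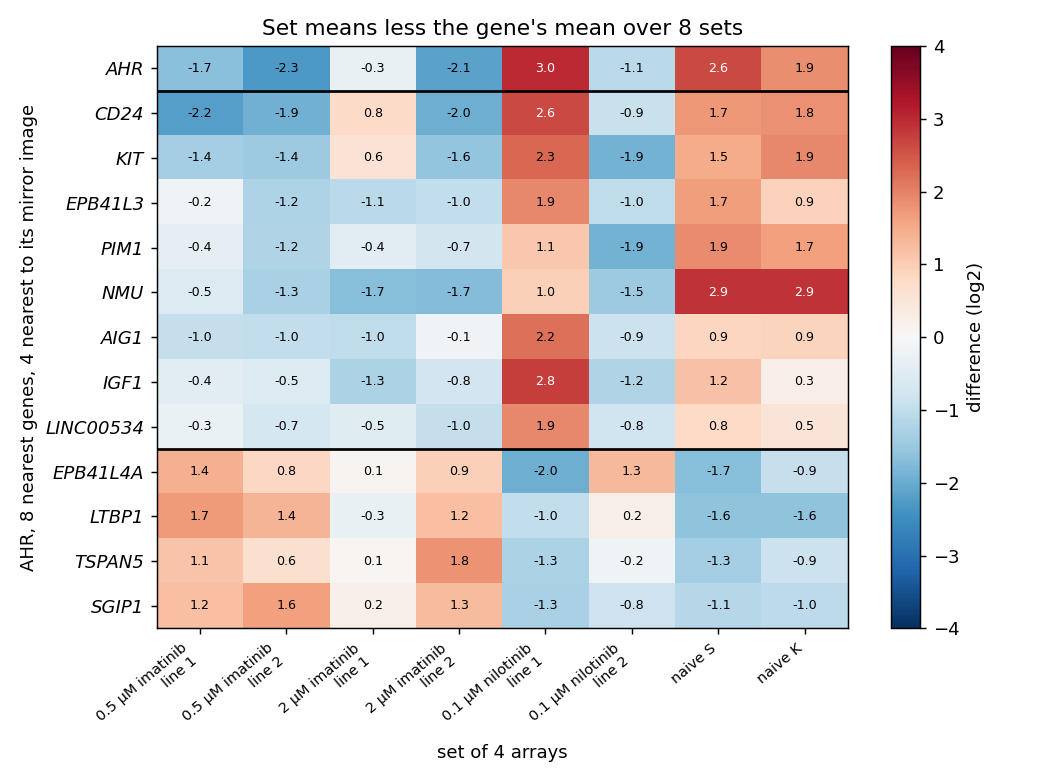
Set means less each gene's mean over the 8 sets (log2; red above, blue below) for AHR, the 8 genes nearest to it and the 4 nearest to its mirror image, with sets in columns. CD24 and KIT follow AHR in being high in nilotinib line 1 and the naive sets and low in the other lines, with 2 µM imatinib line 1 between.

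None of the 5 named genes on each side of AHR on chromosome 7 shared its pattern of 5 low lines and 1 high one. Their set means spanned between 0.43 and 2.53, with a median of 0.99, against 0.66 over all genes and 5.28 for AHR. The nearest neighbours, AGR3 on the lower side and SNX13, a sorting nexin, on the upper side, differed from naive by between -0.46 and -0.08 and by between 0.21 and 0.98 over the 6 lines. HDAC9, a histone deacetylase gene, gave between -0.95 and -0.66 in all 6 lines, with -0.90 in nilotinib line 1. TSPAN13, a tetraspanin 3 places from AHR, stood at -1.96 in nilotinib line 1, the line that kept AHR, while the other 5 lines stood at 0.08 to 0.57. Neighbours of TIPARP spanned between 0.34 and 1.88 (median 0.60), and they varied in whether they shared its peak. PA2G4P4, LINC00886, LINC00880 and CCNL1, all on the same side, were highest in nilotinib line 1, and the other neighbours were not. PA2G4P4, a pseudogene 2 places away with the widest span, was highest in nilotinib line 1 (6.44) and lowest in 2 µM imatinib line 2 (4.56), the same sets as for TIPARP, against 5.54 in naive S and 5.26 in naive K. The antisense neighbour TIPARP-AS1 read 5.20 in nilotinib line 1 and 5.18 in line 2, against 4.95 in naive S and 5.14 in naive K. Neighbours of ARNT spanned between 0.32 and 3.29 (median 0.86). The widest was the protease gene CTSS, at 8.90 in 2 µM imatinib line 1 and 8.83 in nilotinib line 2, against 7.80 in naive S and 8.03 in naive K. ARNT was highest in these lines too, as were GOLPH3L (8.44 and 8.52), CERS2 (7.65 and 7.80) and CDC42SE1 (9.23 and 9.19). The other neighbours of ARNT did not share these highest sets.

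**Figure D3:**
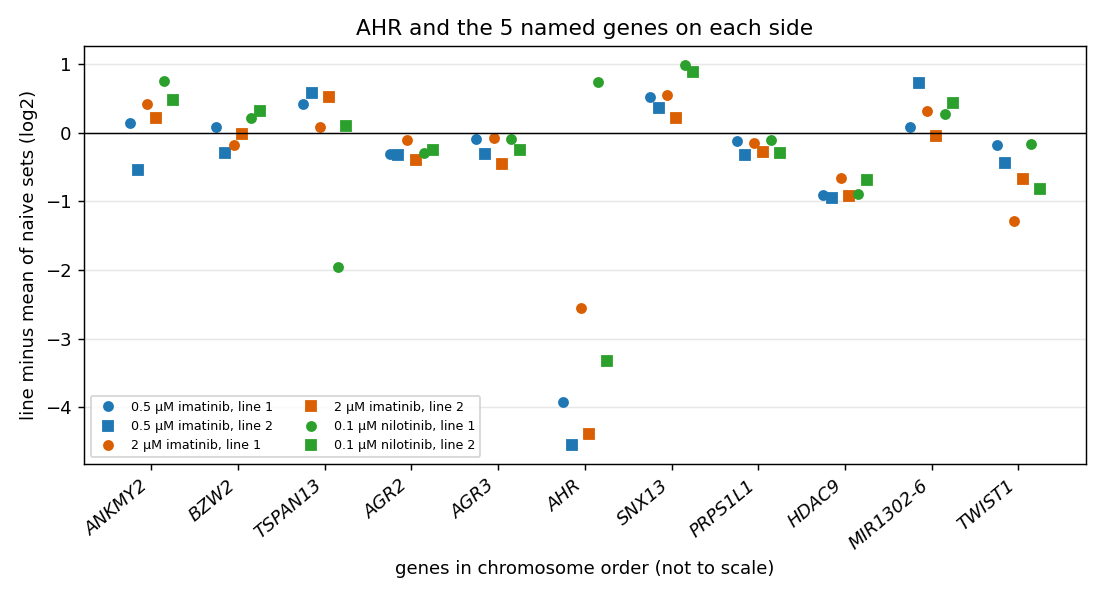
Difference of each resistant line from the mean of the naive sets (log2) for AHR and the 5 named genes on each side in chromosome order, with colours for the resistance and shapes for the line. AHR lies between -4.54 and -2.55 in 5 lines and at 0.73 in nilotinib line 1, while TSPAN13 lies at -1.96 in nilotinib line 1.

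Further genes of the pathway were taken from 7 lists. These covered the receptor complex, PAS family proteins, cofactors, target genes, the kynurenine route of ligand supply and receptor turnover. The last covered PARP enzymes together with genes that remove or bind ADP-ribose. Of 112 listed genes other than AHR, 57 were measured; CYP1A1, CYP1B1, NQO1 and HIF1A are not analysed here. In all 6 lines against naive, 3 of the 57 rose and 1 fell in limma, where 3.21% of all genes rose and 0.504% fell. Without naive S, naive K, either 0.5 µM imatinib line or nilotinib line 1, 0 of the 57 passed, and without 2 µM imatinib line 1 the count was 10. Their median change was 6.5e-05, against -0.03 over all genes. No listed gene passed in the 0.5 µM imatinib, 2 µM imatinib or nilotinib lines alone.

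The 3 genes that rose were all coactivators. NCOA1, a p160 coactivator that PAS receptors recruit, rose by 0.84 ± 0.16 (9.22 in resistant lines, 8.38 in naive sets, adjusted p = 0.0448 in limma). CREBBP, a histone acetyltransferase, rose by 0.66 ± 0.12 (9.61 and 8.95, adjusted p = 0.0435 in limma). MED1, a Mediator subunit, rose by 0.65 ± 0.12 (10.06 and 9.41, adjusted p = 0.0418 in limma). The cofactor list had a median of 0.39 over 11 measured of 16 genes, with 3 higher and 0 lower. Over all genes the median was -0.03, with 3.21% higher and 0.504% lower. With the dimmest 40% of genes left out, the median was 0.20, with 710 of 8931 genes higher and 65 lower. The part of the cofactor changes shared with other bright genes was not tested. Between the nilotinib lines, 4 of the 11 cofactors were lower in line 2 than in line 1 and 0 were higher (limma, technical spread only, beside the 27.6% of all genes that passed). By direction, 2392 of 14884 genes were lower and 1709 higher. NCOA1 was 9.11 in line 2 and 9.46 in line 1 (-0.34 ± 0.12, adjusted p = 0.0293 in limma), and its imatinib lines read 8.98 to 9.43. EP300, a histone acetyltransferase akin to CREBBP, was 8.74 in line 2 and 9.53 in line 1 (-0.79 ± 0.11, adjusted p = 1.36e-06 in limma), against 8.17 in naive S and 7.89 in naive K. NCOA2, another p160 coactivator, was 7.39 in line 2 and 8.38 in line 1 (-0.99 ± 0.11, adjusted p = 1.04e-08 in limma), against 7.56 in naive S and 7.43 in naive K. EP300 and NCOA2 were named after their values were seen. The axis along which arrays of the same set varied most, called technical here, had scores between -2.13 and 21.2 in the resistant lines and of -20.8 and -25.1 in naive S and K. With it taken out of the set means, NCOA1, CREBBP and MED1 gave 0.44, 0.51 and 0.30 (adjusted p = 0.253, 0.178 and 0.322 in limma), and none passed.

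Known targets of the receptor had a median of -0.20 over 11 measured of 28 genes, against -0.03 over all genes. With the dimmest 40% of genes left out, the median over the remaining genes was 0.20. The part of the target changes shared with other dim genes was not tested. STC2, a secreted glycoprotein that the receptor and the stress factor ATF4 can both induce, was the 1 target that passed, where 3.21% of all genes rose and 0.504% fell. It fell by 0.93 ± 0.17 (6.85 in resistant lines and 7.77 in naive sets, adjusted p = 0.0433 in limma). STC2 stood at 7.15 in nilotinib line 1 while the other 5 lines read 6.58 to 7.08, against 7.88 in naive S and 7.67 in naive K, so it lay below naive in the nilotinib line that kept AHR too. With the technical axis taken out, STC2 gave -0.80 (adjusted p = 0.173 in limma). NFE2L2, the antioxidant regulator, was highest in nilotinib line 1 (8.35) and 2 µM imatinib line 1 (8.08), the 2 lines with the most AHR, against 7.70 and 7.76 in naive S and K. GSTA1 and GSTA2, also listed as targets, went the other way and were lowest of all sets in those 2 lines. In nilotinib line 1 and 2 µM imatinib line 1, GSTA1 read 6.50 and 6.64 and GSTA2 read 5.30 and 5.44. The naive sets, also high in AHR, did not share these low levels. In naive S and K, GSTA1 read 7.19 and 7.22, above every line, and GSTA2 read 6.22 and 5.61. CD36, a fatty acid receptor, was high in 1 set: it stood at 8.24 in nilotinib line 2, at 4.02 in nilotinib line 1 and between 4.04 and 4.98 in the imatinib lines, against 4.66 and 4.22 in naive S and K (line 2 less line 1 4.21 ± 0.14, adjusted p = 6.85e-22 in limma, technical spread only). CD36 was thus also lowest in the 2 lines with the most AHR, but naive K, with more AHR than 2 µM imatinib line 1, was close at 4.22. Outside nilotinib line 2 these CD36 levels are low, and whether they lie above background is not known. NFE2L2, GSTA1, GSTA2 and CD36 were named after their values were seen.

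The receptor complex list had a median of 0.10 over 4 measured of 9 genes (PTGES3, CDC37, SRC and KPNB1). PTGES3, the cochaperone p23, gave 0.48 ± 0.18 (adjusted p = 0.137 in limma), and the kinase SRC gave -0.41 ± 0.12 (adjusted p = 0.0824 in limma). PAS family genes had a median of -0.03 over 17 measured of 21, with NCOA1 past the threshold. EPAS1, the hypoxia factor HIF-2 alpha and another ARNT partner, had a mean of 6.36 in resistant lines and 7.27 in naive sets (-0.91 ± 0.19, adjusted p = 0.0507 in limma), below both naive sets in 6 of 6 lines. ARNT2, a close relative of ARNT, gave 0.04 ± 0.12 (adjusted p = 0.811 in limma).

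The kynurenine route makes natural ligands of the receptor. Its list had a median of -0.09 over 8 measured of 16 genes, and QPRT, which carries the route on to NAD, gave 0.74 ± 0.35 (adjusted p = 0.203 in limma). KYNU, kynureninase, gave -0.68 ± 0.39 (adjusted p = 0.271 in limma). These 2 enzymes differed most between the nilotinib lines: KYNU was 7.10 in line 2 and 5.45 in line 1 (1.65 ± 0.11, adjusted p = 7.34e-14 in limma), and QPRT was 8.41 in line 2 and 9.79 in line 1 (-1.38 ± 0.11, adjusted p = 7.05e-12 in limma), against technical spread only. Receptor turnover genes had a median of -0.05 over 3 measured of 8, with the segregase VCP at 0.59 ± 0.15 (adjusted p = 0.0662 in limma). The PARP list had a median of 0.13 over 7 measured of 21. Of the measured genes, TIPARP, PARP1 and PARP2 are PARP enzymes, and PARG, MACROD1, MACROD2 and ADPRS are not. PARG, which removes poly-ADP-ribose, gave 0.49 ± 0.13 (adjusted p = 0.0749 in limma), and PARP2 gave 0.47 ± 0.11 (adjusted p = 0.0565 in limma).

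**Figure D4:**
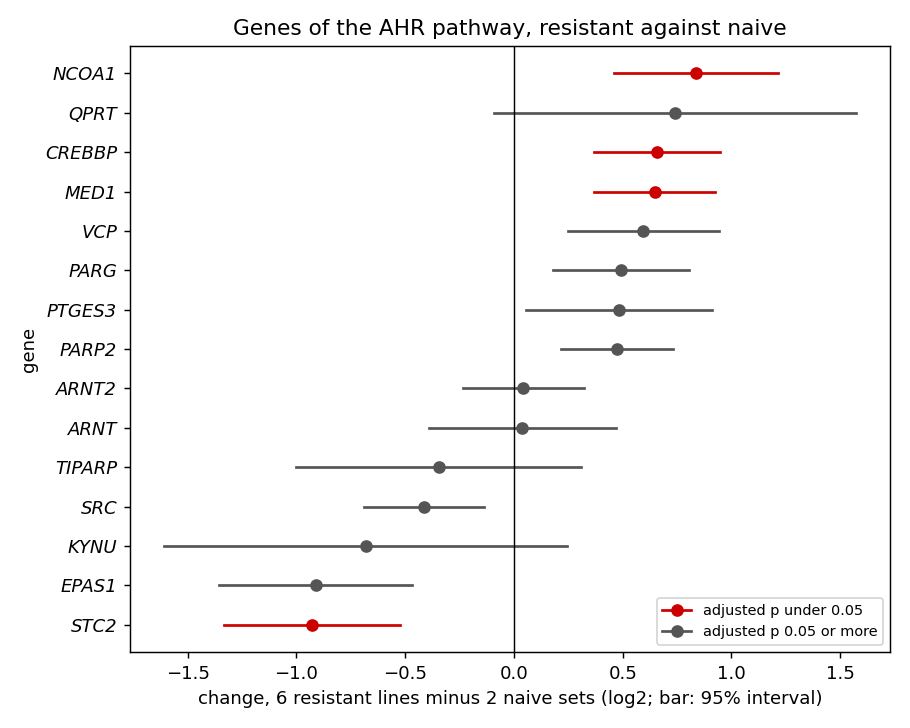
Change in all 6 resistant lines less the 2 naive sets (log2) for the pathway genes named by rule, with points for limma estimates, bars for 95% intervals and red for an adjusted p under 0.05. NCOA1, CREBBP and MED1 lie at 0.84, 0.66 and 0.65 and STC2 at -0.93, while TIPARP (-0.35) and ARNT (0.04) have intervals that span 0.

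Over the 57 listed genes, 7 were higher and 15 lower in nilotinib line 2 than in line 1, 19 higher and 12 lower in 2 µM imatinib line 2 than in line 1, and 5 higher and 8 lower in 0.5 µM imatinib line 2 than in line 1 (limma, technical spread only), beside the 27.6%, 33% and 18.7% of all genes given above. Over all 14884 genes, 1709 were higher and 2392 lower between the nilotinib lines. The counts were 2945 and 1971 at 2 µM imatinib, and 1306 and 1482 at 0.5 µM imatinib. The K-562 and erythroid markers (6 of 15 measured) had mean levels between 7.79 and 8.37 in resistant lines and between 7.41 and 7.68 in naive sets, with GATA1, the erythroid master regulator, between 9.12 and 9.71 over the 8 sets. Marker means for T cells (3 of 5 measured) lay between 6.20 and 6.48 in resistant lines and 6.51 and 6.69 in naive sets. They lay between 5.86 and 6.12 in resistant lines and 6.25 and 6.54 in naive sets for B cells (1 of 4 measured), and between 5.83 and 6.37 in resistant lines and 6.17 and 6.53 in naive sets for monocytes and granulocytes (4 of 6 measured). For fibroblasts (1 of 4 measured) and endothelium (2 of 3 measured) the means were between 4.15 and 4.41 and between 5.61 and 6.01 in resistant lines, against 4.26 to 4.43 and 5.82 to 5.97 in naive sets. Epithelial marker means (4 of 5 measured) lay between 7.21 and 8.01 in resistant lines and 7.92 and 7.98 in naive sets, with EPCAM, an adhesion molecule, between 5.86 and 9.26 in resistant lines. The arrays hold no true zero, so no marker can be called absent. The part of these marker differences in the AHR, TIPARP and ARNT values was not tested.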

How the data were processed

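RNA from 32 K-562 samples had been hybridised to GeneChip whole-transcript arrays. The authors deposited 1 value per feature and array, read here as log2 intensities between 1.24 and 14.2 because no label states the base. Per the submitters' processing notes, Transcriptome Analysis Console 4.0 had been used; no source used here gives the normalization, the background treatment or the genome build. Values, with medians per array of 5.85 to 6.11, were used as deposited.

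Of 53617 features, 16098 had 1 gene symbol and 37519 were unnamed here. For 779 genes with several features the brightest by mean was kept, which left 14884 genes, named through the RefSeq annotation of GRCh38.p14. AHR, ARNT and TIPARP had 1 feature each. Set means entered limma 3.58.1 under R 4.3.3 (8 means, 4 residual degrees of freedom, 7 comparisons); for sets within a group, all 32 arrays entered it (24 residual degrees of freedom, 4 comparisons). P-values were adjusted over all named genes by the Benjamini-Hochberg method with a threshold of 0.05, and intervals are at 95%. The fits were tested on simulated data. No depth exists for arrays, and the number of lines (2 per resistance) limits the precision.

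Members, lists and tests were chosen with earlier results of these data known. Named pathway genes are those of a list past the threshold against naive, up to 4 by smallest p, otherwise the 2 with the largest change over all lines, plus EPAS1 and ARNT2. Like genes, 8 nearest and 4 mirrored for AHR and 3 nearest for members spanning at least 1, and 5 neighbours on each side were also fixed by rule. Alternatives were another median or quantile scale, leaving out the dimmest 40% of genes, all features, compared groups only, sets as a random block, the technical axis taken out, each set left out, and line number as a block. Same-numbered lines did not deviate together throughout (correlations over genes of 0.14, 0.19 and -0.20). Such correlations cannot show whether these lines were derived or handled together, and line number entered as a block only as an alternative.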

Additional observations from a re-analysis of the deposited data

Results flagged for a closer look

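AHR stood on opposite sides of naive in the 2 nilotinib lines: line 2 less line 1 was -4.06, with line 1 above and line 2 below all naive arrays. This difference was not tested. TIPARP differed between lines of a resistance by limma, against technical spread only, with line 2 less line 1 at -1.02 for nilotinib and -0.60 for 2 µM imatinib. ARNT gave 0.43 for nilotinib and -0.49 for 2 µM imatinib in the same test, so its sign differed between the resistances.

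Single arrays stood far from the rest of their set in 3 of 27 groups of values, which were the arrays of each set and the 6 line means for each member; chance gives about 1 in 20. They were an ARNT level of 9.82 in 2 µM imatinib line 1, a TIPARP level of 9.23 in nilotinib line 1 and a TIPARP level of 8.25 in naive S. The gap was 0.84, 0.87 and 0.86 of the range of the set.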

How the results depend on the processing

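AHR over all 6 lines less naive lay between -3.75 and -2.62 over 14 alternatives, and TIPARP between -0.70 and -0.20, never past the threshold. The ARNT difference (0.04) was -0.28 after quantile normalization and -0.26 with the technical axis taken out, and leaving out 1 set gave between -0.045 and 0.12. Its sign turned without naive S (-0.045), 2 µM imatinib line 1 (-0.03) or nilotinib line 2 (-0.01). The count of listed genes past the threshold (4) was 0 with every array feature tested, 0 with the technical axis taken out, 16 with sets as a random block, and between 0 and 10 with 1 set left out; the random block counts 28 residual degrees of freedom in place of 4. It was 0 without naive S, naive K, either 0.5 µM imatinib line or nilotinib line 1, 2 without nilotinib line 2, 10 without 2 µM imatinib line 1 and 7 without line 2. In the random block TIPARP passed in the 2 µM imatinib lines against naive (-0.76, adjusted p = 0.00767 in limma), in nilotinib against 2 µM imatinib (1.00, adjusted p = 0.00356) and in nilotinib against 0.5 µM imatinib (0.76, adjusted p = 0.0192).

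By resistance, these signs turned. AHR: nilotinib less naive 0.73 without nilotinib line 2 (-3.33 to 0.73 over sets left out), and 2 µM less 0.5 µM imatinib -0.156 without 2 µM line 1 (-0.156 to 1.68). TIPARP in nilotinib less naive was -0.18 after quantile normalization, -0.10 with the axis taken out and -0.27 without nilotinib line 1 (-0.27 to 0.75), and in 2 µM less 0.5 µM imatinib 0.054 without 2 µM line 2 (-0.55 to 0.054). ARNT in 2 µM imatinib less naive was -0.17 after quantile normalization, -0.11 with the axis taken out and -0.13 without line 1 (-0.13 to 0.37). In nilotinib less naive it was -0.30 and -0.33 in those settings, -0.03 without naive S and -0.16 without nilotinib line 2 (-0.16 to 0.27). In 0.5 µM imatinib less naive it was 0.03 without naive K and 0.054 without line 1 (-0.17 to 0.054). Between resistances it was -0.068 for 2 µM less 0.5 µM imatinib without 2 µM line 1 (-0.068 to 0.42), -0.10 for nilotinib less 0.5 µM imatinib without nilotinib line 2 (-0.10 to 0.33), and 0.18 or 0.15 for nilotinib less 2 µM imatinib without 2 µM line 1 or nilotinib line 1 (-0.31 to 0.18). The cause was not tested.

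With line number as a replicate block, nilotinib less 2 µM imatinib was 1.00 for TIPARP (adjusted p = 0.756 in limma) and -0.06 for ARNT (adjusted p = 0.947), and 0 genes passed between resistances with or without it. With 1 set left out, AHR ranged from 0.15 to 4.20 for nilotinib less 2 µM imatinib and 0.91 to 4.97 for nilotinib less 0.5 µM imatinib, and TIPARP from 0.49 to 1.52 and 0.24 to 1.27. Counts over all 6 lines against naive were 553 genes, 362 after quantile normalization (179 higher and 183 lower, beside 478 and 75), 775 without dim genes, 16 of 53617 features, 3660 in the random block, 12 with the axis taken out and between 0 and 1927 with 1 set left out. The other counts, with 1 set left out and in the random block, were 0 to 705 and 2672 for 0.5 µM imatinib against naive (1990 with only the groups compared), 0 to 125 and 1679 for 2 µM imatinib, 0 to 1187 and 3696 for nilotinib (0 with only the groups compared, with every feature or with the axis taken out, 1 after quantile normalization), 0 to 270 and 413 for 2 µM less 0.5 µM imatinib, 0 to 35 and 201 for nilotinib less 2 µM imatinib, and 0 to 28 and 550 for nilotinib less 0.5 µM imatinib. NCOA1, CREBBP and MED1 missed the threshold in 9 of 14 alternatives and STC2 in 8. Members have 1 feature each, so no other feature could be tried, and a fit of compared groups only is the full fit for all 6 lines. No detection calls were used, so levels near background could not be marked.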
